A study of Mus musculus with 4 samples.

Results

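The neutrophil alarmins and granule genes were followed as a set of 10 genes: S100a8, S100a9, Slpi, Lcn2, Wfdc21, Retnlg, Stfa2l1, BC100530, Ngp and Camp, out of 32285 genes measured. They were chosen by their measured levels: earlier results on these same cells placed them among the genes that mark neutrophils. Their height in neutrophils and the differences between libraries are therefore given as a description and carry no test. Of the 10, 9 were found in the matrix under these symbols, and BC100530 was found by its gene identifier under the symbol Cstdc5. All 10 had UMIs (unique molecular identifiers, 1 for each RNA molecule captured) in neutrophils of all 4 libraries.

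Each group was 1 library of live CD45+ cells sorted from tumours of KPC cells, a mouse pancreatic cancer line, grown under the skin of male C57BL/6 mice. Tumours from several mice went into a group's cell suspension, so animals cannot be separated. The groups were untreated, STING agonist (ADU-S100, a cGAMP analogue injected once into the tumour), LTβR agonist (LTbR in the labels; the antibody 4H8, given repeatedly into the peritoneum), and STING and LTbR agonist, called the combination here. With 1 library a group no difference between groups could be set against replicate spread, so no p-value is given: intervals are exact Poisson or Clopper-Pearson 95% intervals, which cover counting error only, and a gene is called higher or lower where the log2 ratio of CPM + 10 (CPM, the UMIs of a gene scaled to the same total in every class and library) reached 1 in size with at least 50 UMIs in 1 of the libraries compared.

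Neutrophils are short-lived phagocytes that form in the bone marrow and load their granules in waves, the azurophil granules at the earliest stages, the specific granules later and the gelatinase granules last. S100a8 and S100a9 encode the subunits of calprotectin, a calcium-binding alarmin that fills the neutrophil cytosol and is released at sites of inflammation. The other members are made as granule contents (Ngp, Camp, Lcn2), protease inhibitors (Slpi, Wfdc21, and the stefins Stfa2l1 and BC100530) or a secreted resistin-like protein (Retnlg). The RNA of granule proteins such as Ngp and Camp is known mainly from maturing cells of the marrow, and mature neutrophils carry the proteins with little of the RNA.

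In the GENCODE annotation of mm10 (GRCm38), S100a8 (chromosome 3, 90668978 to 90670035, plus strand) and S100a9 (90692632 to 90695721 on the same chromosome, minus strand) are neighbours, and Ngp (chromosome 9, 110419747 to 110423012, plus strand) and Camp (chromosome 9, 109847379 to 109849617, minus strand) lie on 1 chromosome. Slpi (164354070 to 164389095) and Lcn2 (32384633 to 32388252) are on the minus strand of chromosome 2, Wfdc21 (83746940 to 83752642) on the plus strand of chromosome 11, and Retnlg (48872621 to 48874496, plus strand), Stfa2l1 (36156811 to 36161953, plus strand) and BC100530 (36359382 to 36367748, minus strand) on chromosome 16. The bases before the start of these 4 genes and of Slpi are shown because S100a8 and S100a9 kept step from cell to cell, Ngp and Camp lay in the same few cells, and Slpi was the member that differed between libraries outside neutrophils. They come from the RefSeq-based promoter table of build GRCm38.p6, which held 8 of the 10 members and neither Wfdc21 nor BC100530, run 5′ to 3′ on the gene's strand, and stop where the annotation has the gene's first exon. The Slpi stretch lies inside the annotated span of the gene, before the start that the table gives. Capitals mark matches to TTGCNNAA or its reverse complement TTNNGCAA, a form of the site bound by C/EBP factors, which act throughout neutrophil maturation.
S100a8 upstream (chr3:90668821-90668977, plus strand): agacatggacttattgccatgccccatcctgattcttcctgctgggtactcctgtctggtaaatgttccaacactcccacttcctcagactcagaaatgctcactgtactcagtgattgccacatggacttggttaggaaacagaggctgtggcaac
S100a9 upstream (chr3:90695722-90695971, minus strand): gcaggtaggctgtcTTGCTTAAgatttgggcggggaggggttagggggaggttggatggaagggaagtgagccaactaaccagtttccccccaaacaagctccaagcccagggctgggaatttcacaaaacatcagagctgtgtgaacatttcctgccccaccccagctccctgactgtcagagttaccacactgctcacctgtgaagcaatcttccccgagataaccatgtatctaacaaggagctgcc
Slpi upstream (chr2:164356508-164356757, minus strand): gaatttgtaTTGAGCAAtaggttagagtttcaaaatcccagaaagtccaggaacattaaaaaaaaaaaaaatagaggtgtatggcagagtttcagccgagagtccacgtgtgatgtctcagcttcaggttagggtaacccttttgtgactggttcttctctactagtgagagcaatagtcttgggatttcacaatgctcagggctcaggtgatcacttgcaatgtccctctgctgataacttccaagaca
Ngp upstream (chr9:110419558-110419746, plus strand): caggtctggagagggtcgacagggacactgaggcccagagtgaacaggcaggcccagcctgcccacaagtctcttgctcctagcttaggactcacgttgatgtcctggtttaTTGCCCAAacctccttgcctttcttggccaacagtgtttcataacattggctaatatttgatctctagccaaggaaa
Camp upstream (chr9:109849618-109849706, minus strand): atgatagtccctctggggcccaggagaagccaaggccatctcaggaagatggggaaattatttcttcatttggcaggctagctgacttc
Within the 250 bases before the start given in the table, 5 of the 8 members held a match, against 9.56% of all 32851 promoters. The members without one were S100a8, Stfa2l1 and Camp. The Lcn2 window, which held a match, began inside an annotated exon of the gene. The S100a8, Ngp and Camp windows ran past the annotated start, and only 1 of the 2 Ngp matches lay before it. A match is a run of letters and no evidence of binding.

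The cluster called neutrophil-like took its name from a fixed list of 8 neutrophil markers, and the neutrophil marker genes given below are on that list. Their shares describe the cells and do not test the name. Neutrophil-like cells were 964 of 23011 filtered cells, 1 of 31 clusters made without the 10 members. Csf3r, the receptor for the neutrophil growth factor, had a UMI in 91.3% of them, the histamine enzyme gene Hdc in 93.3%, G0s2 in 83.4% and the chemokine receptor gene Cxcr2 in 67.6%, whereas Cxcr2 was seen in 0.608% of monocyte-like, 0.917% of macrophage-like and 0.108% of T- or NK-like cells. Other markers were shared with myeloid cells: Csf3r was in 35.8% of monocyte-like cells, Il1r2 in 92.2% of neutrophil-like but also 66.7% of macrophage-like and 70.4% of cluster 3 cells, and Trem1 in 71.8% of neutrophil-like and 71.7% of cluster 3 cells. Ly6g, the usual surface marker, had a UMI in only 4.05%. Markers of another class were found in 462 of the 964 cells. The cluster held 222 cells without treatment, 301 with STING agonist, 374 with LTβR agonist and 67 with the combination, so every neutrophil value of the combination rests on few cells. Median depth per neutrophil-like cell was 1928 to 2376 UMIs over the libraries, against 5750 to 7094 in all filtered cells. Total depth was 32529174 to 60770280 UMIs a library, and 284 cell barcodes occurred in more than 1 library. An unnamed myeloid cluster led by Inhba, Nos2 and Il1a, in which all 8 monocyte and all 13 macrophage markers had UMIs in every library, is called cluster 3 and kept apart.

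**Figure D1:**
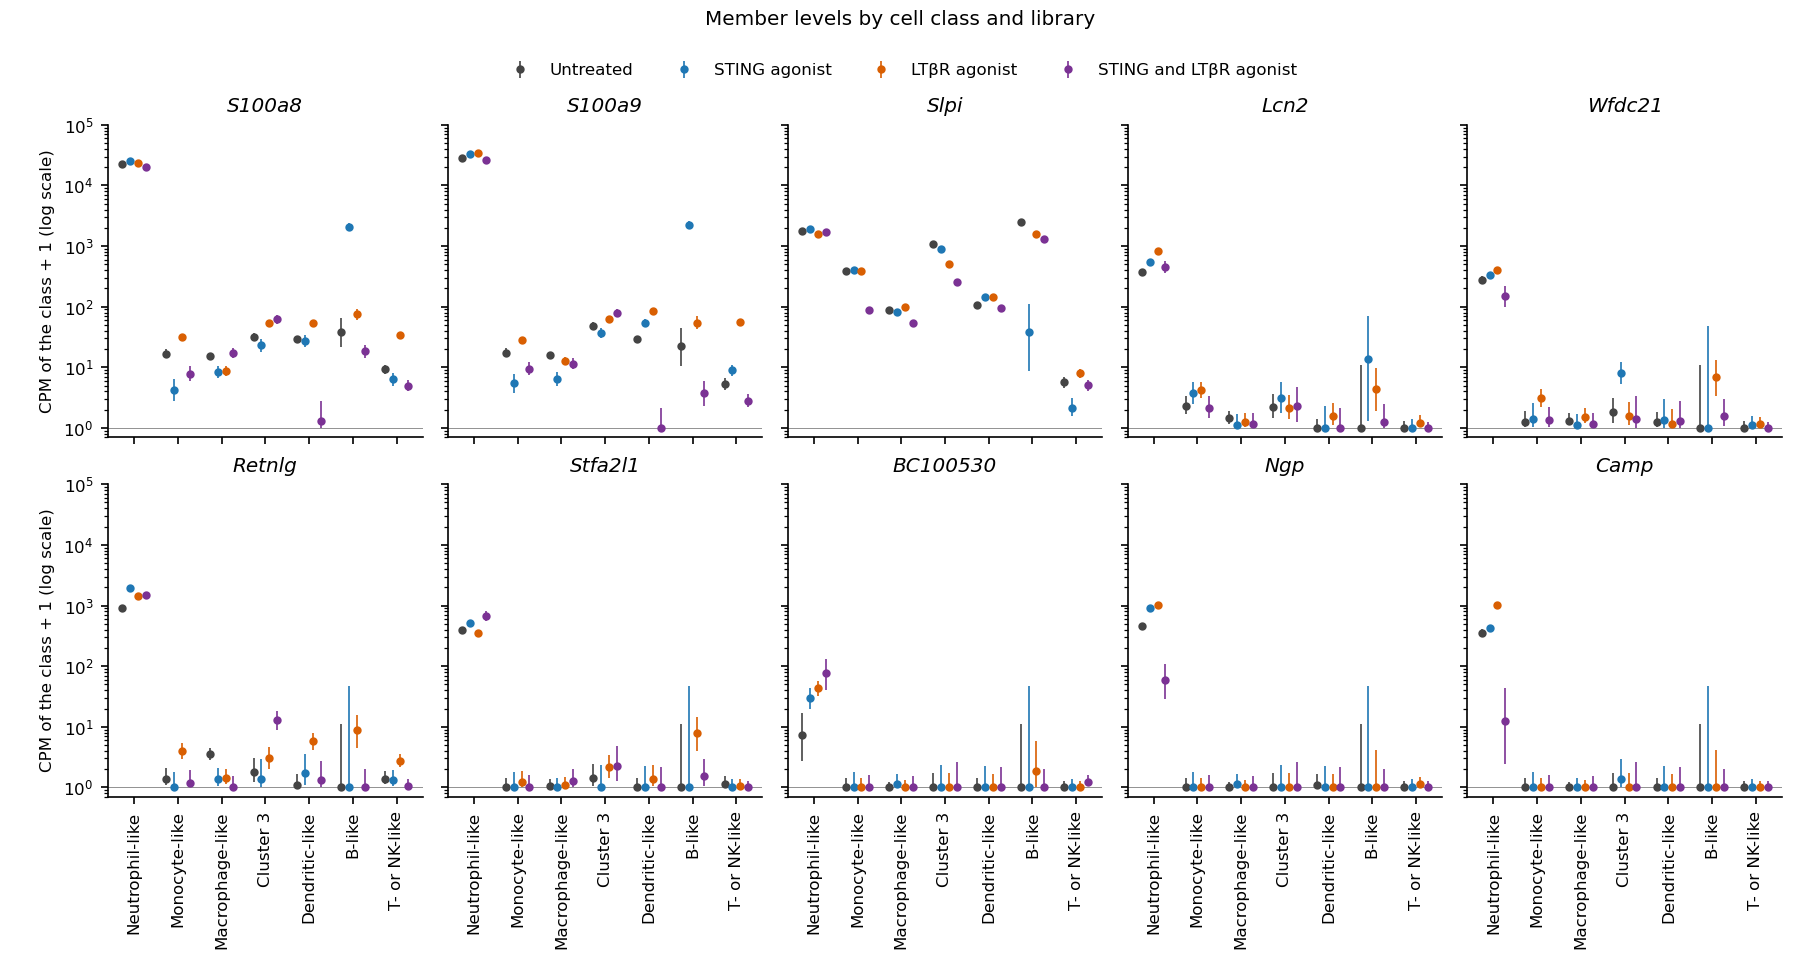
Levels of the 10 members (CPM of the class plus 1, log scale) in 7 cell classes, 1 point per library with its exact Poisson 95% interval. Most members stand far higher in neutrophil-like cells than in the other classes, while Slpi stays high in monocyte-like, cluster 3 and dendritic-like cells (B-like values come from few cells). The STING agonist points of S100a8 and S100a9 in B-like cells come from 1 cell.

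Calprotectin RNA in neutrophil-like cells as a whole stayed within 2-fold of untreated in all 3 treated libraries. S100a8 stood at 22820 CPM in untreated, 25370 in STING agonist, 23350 in LTβR agonist and 20330 in combination neutrophil-like cells. S100a9 stood at 28620, 33310, 34560 and 26370 CPM in the same order. The log2 ratios to untreated ran from -0.17 to 0.15 for S100a8 and from -0.12 to 0.27 for S100a9, inside the 2-fold bound. Between 88.1% and 94.4% of the cells had a UMI of S100a8 and between 91.4% and 96.8% one of S100a9, and with each cell thinned to 1000 UMIs the share for S100a8 was 88.9%, 92.2%, 93.0% and 86.5%. The pair took 4.19% of the UMIs of the median untreated neutrophil-like cell, 4.54% of the STING agonist one, 5.24% of the LTβR agonist one and 3.49% of the combination one. Single cells ranged from none to 27.9%.

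S100a8 and S100a9 kept step with each other. Per 100 UMIs of S100a8 there were 125 UMIs of S100a9 in untreated, 131 in STING agonist, 148 in LTβR agonist and 130 in combination neutrophil-like cells, a ratio of counts and not of levels per length. Over single cells, Spearman's rho between their shares of UMIs was 0.93 in 222 untreated, 0.88 in 301 STING agonist, 0.92 in 374 LTβR agonist and 0.88 in 67 combination cells, all of them cells of 1 library each. For S100a8 and Slpi it was 0.32 to 0.44 and for S100a8 and Stfa2l1 0.16 to 0.32. The cells of a library share its depth, and no p is given.

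Over the whole library the same RNA varied far more. Over all filtered cells of a library S100a8 stood at 285 CPM without treatment, 748 with STING agonist, 594 with LTβR agonist and 103 with the combination. Of the cells, 3.27%, 8.03%, 5.23% and 1.26% were neutrophil-like, and the libraries ranked the same way by this share as by S100a8. These cells held 93.9%, 98.0%, 94.7% and 89.2% of all S100a8 UMIs. In a whole-tumour measurement, a change in the number of neutrophils and a change of calprotectin RNA per neutrophil could not be told apart. Here the level per neutrophil-like cell stayed within 2-fold of untreated in each treated library, but this depended on which cells were called neutrophil-like. With each cell named by its marker score instead, the class held 454, 386, 587 and 194 cells and S100a8 was 6100, 14440, 10060 and 3212 CPM. The log2 ratio of STING agonist to untreated was then 1.24 for S100a8 and 1.32 for S100a9, past 2-fold, where 3.73% of all genes were called.

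Outside neutrophils calprotectin RNA was low and lay in few cells. T- or NK-like cells, which should lack these genes, gave 8.35, 5.38, 33.0 and 3.99 CPM of S100a8 in the 4 libraries in the order above, with a UMI in 0.0825% to 2.23% of cells. Monocyte-like cells gave 15.8, 3.22, 30.2 and 6.91 CPM and macrophage-like cells 14.5, 7.47, 7.63 and 16.3. Cluster 3 was above the T- or NK-like level in every library, at 31.0, 22.2, 53.2 and 61.4 CPM. S100a9 was 4.29, 8.02, 54.2 and 1.82 CPM in T- or NK-like cells, 16.5, 4.51, 26.9 and 8.56 in monocyte-like cells, 15.1, 5.42, 11.7 and 10.5 in macrophage-like cells and 47.4, 35.7, 62.5 and 78.5 in cluster 3. The monocyte-like S100a9 level was above the T- or NK-like one in untreated and combination and below it in STING agonist and LTβR agonist, and of the combination's cluster 3 UMIs 92.9% came from 1 cell. In each of these classes a few cells carried most of the UMIs: the 10 cells with the most S100a8 held 80.5% to 95.2% in monocyte-like cells, 67.7% to 95.7% in macrophage-like cells and 90.3% to 100% in cluster 3. A single cell with 165 UMIs gave all of the S100a8 in the 15 STING agonist B-like cells. Neutrophil-like cells exceeded T- or NK-like cells 708-fold in the LTβR agonist library and 2732-fold to 5096-fold in the others. In monocyte-like and macrophage-like cells S100a8, S100a9 and Slpi were the members with enough UMIs for a ratio to untreated, and neither S100 gene passed the bound on CPM + 10 against untreated there. At these levels the added 10 CPM shrinks a ratio: S100a8 in STING agonist monocyte-like cells was at -0.96 with it and at -1.99 with 1 CPM added, and S100a9 at -0.87 and -1.67. Between treated libraries, S100a8 was lower with the combination than with LTβR agonist in monocyte-like cells (log2 ratio -1.25) and higher with the combination than with STING agonist in cluster 3 (1.15), where 1 cell held 82.5% of the combination's S100a8.

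Slpi, secretory leukocyte protease inhibitor, a blocker of neutrophil elastase, was the member made by many other cells. Neutrophil-like cells had 1766, 1925, 1554 and 1698 CPM (untreated, STING agonist, LTβR agonist, combination), with log2 ratios to untreated between -0.18 and 0.12. T- or NK-like cells had 4.68, 1.16, 7.04 and 4.06 CPM. Monocyte-like cells had 389, 396, 394 and 87.4 CPM, cluster 3 had 1077, 883, 504 and 256 CPM, and macrophage-like cells had 86.8, 81.8, 98.8 and 53.2 CPM. With cells named by cluster, Slpi in neutrophil-like cells thus differed little between libraries, while the monocyte-like cells of the combination library stood apart from the other 3. With each cell named by its marker score instead, Slpi in neutrophil-like cells was 545, 1164, 877 and 281 CPM. The log2 ratios to untreated were then 1.08, 0.675 and -0.932, past 2-fold with STING agonist, where 3.73% of all genes were called. Neutrophil-like cells as named by cluster held 8.48% of all Slpi UMIs in the untreated library, 23.2% in STING agonist, 15.4% in LTβR agonist and 4.17% in combination.

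The low level in monocyte-like cells of the combination was a difference spread over many cells. The log2 ratio of combination to untreated was -2.04 (counting interval -2.20 to -1.88), and against the STING agonist and LTβR agonist libraries it was -2.06 and -2.05, in comparisons that called 1 of 2 members tested (1.47% of all genes) and 2 of 3 (0.278%). It was the 1 member called of 3 with enough UMIs, where 1.29% of all genes tested were called. With STING agonist alone 0 of 3 members were called (0.025% of all genes) and with LTβR agonist alone 0 of 3 (0.333%). The share of monocyte-like cells with an Slpi UMI, thinned to 1000 UMIs a cell, was 15.3% in untreated, 17.1% in STING agonist, 12.2% in LTβR agonist and 5.43% in combination, and unthinned 37.8%, 44.7%, 31.9% and 18.9%. The combination was the lowest of the 4 on both measures, and the unthinned share in T- or NK-like cells was 0.490% to 2.27%. In macrophage-like cells the combination ratio was -0.62 (-0.81 to -0.42), inside the bound, and 0 of 3 members were called there under each treatment, against 0.0509%, 0.503% and 0.881% of all genes for STING agonist, LTβR agonist and combination. Single cells bore on that ratio: it was -0.96 without the cell with most Slpi in each library and -1.22, past the bound, without that cell of each cluster.

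**Figure D2:**
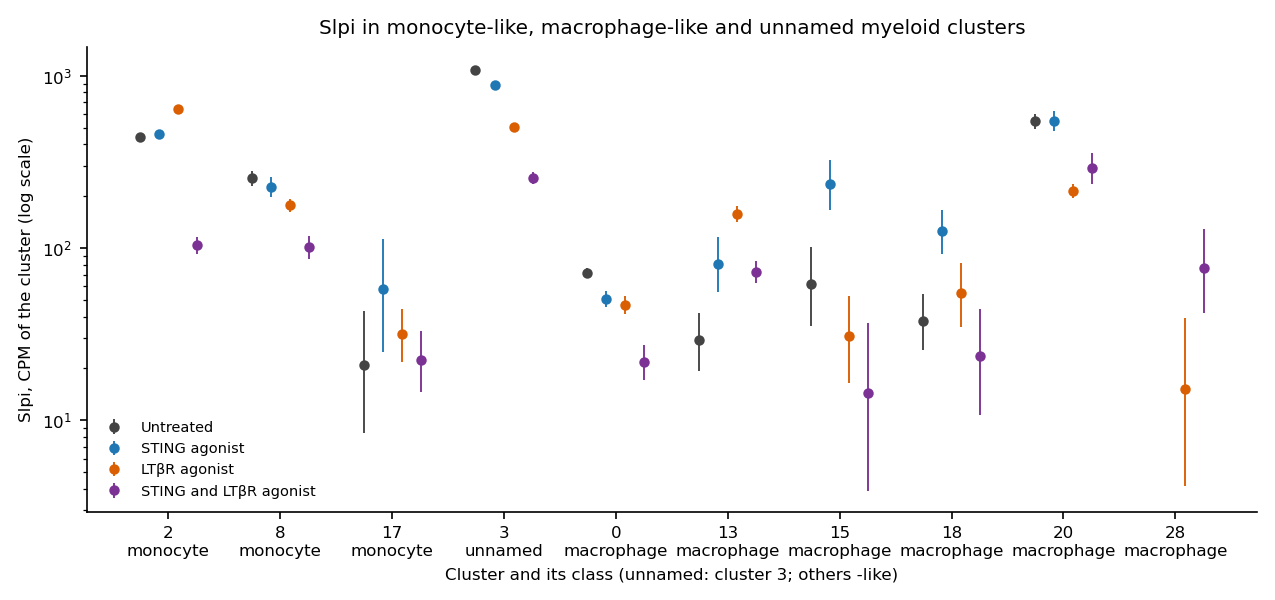
Slpi (CPM of the cluster, log scale) in each monocyte-like and macrophage-like cluster and in unnamed cluster 3. There is 1 point per library with at least 20 cells, with its exact Poisson 95% interval. The other unnamed cluster, cluster 14, is not shown. The combination point lies below the untreated one in clusters 2, 8, 3, 0 and 20 with intervals apart, and level with it in cluster 17. It lies above in cluster 13, where 1 cell held 62.1% of the combination's Slpi UMIs.

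Cluster by cluster the pattern was uneven. In cluster 2, monocyte-like and led by Tgm2, Dmkn and Cxcl10, Slpi was 441 CPM in untreated, 460 in STING agonist, 644 in LTβR agonist and 104 in combination cells. In cluster 8, led by Gm9733 and the haptoglobin gene Hp, it was 254, 227, 177 and 101 CPM. In cluster 17, led by Ace and Adgre4, it was low throughout, at 21.0, 57.5, 31.6 and 22.4 CPM. Both Slpi-rich monocyte-like clusters were therefore lower in the combination, and the Slpi-poor cluster 17 held 62 of 937 untreated but 217 of 764 combination cells of the class. With each cluster weighted alike the log2 ratio was -1.06, against -2.04 for the class as a whole.

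In cluster 3 the ratio to untreated was -0.28 with STING agonist, -1.08 with LTβR agonist and -2.03 with the combination. Slpi was the called member of 3 tested with LTβR agonist (0.341% of all genes called) and with the combination (0.448%), and none was called with STING agonist (0.116%). With the combination over STING agonist 2 of 3 were called (0.575%), Slpi lower at -1.75 and S100a8 higher. The thinned share of cells with an Slpi UMI ran in the same order, at 31.9%, 27.6%, 19.2% and 14.6% from untreated to combination. The other unnamed cluster, cluster 14, was led by Areg and Foxp3 and scored highest for monocyte markers. Slpi in it was 130, 94.4, 194 and 35.7 CPM. Among macrophage-like clusters, cluster 0 (led by C1qb, C1qa and C1qc) had 71.3, 50.8, 46.9 and 21.7 CPM and the heat-shock cluster 20 (Hspa1b, Hspa1a, Hmox1) had 543, 549, 215 and 290 CPM. Cluster 13, led by Retnla, Ccl8 and Mrc1, had 29.2, 81.3, 158 and 73.0 CPM, and 1 cell held 53.6%, 51.6%, 37.3% and 62.1% of these UMIs. Without that cell of each library, tried after the data were seen, the levels were 13.8, 40.8, 99.4 and 27.8 CPM, and the log2 ratio to untreated was 2.20 with LTβR agonist (counting interval 1.54 to 2.82) and 0.67 with the combination (-0.084 to 1.38). The share of cells with an Slpi UMI was 9.20%, 10.0%, 14.5% and 7.50%. Without the single cells the combination level was still above untreated, but its counting interval held 0.

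B-like cells cannot serve as the lymphocyte background for Slpi. They gave 2482, 37.8, 1552 and 1318 CPM, but only 6 of 58 untreated, 2 of 15 STING agonist, 13 of 175 LTβR agonist and 38 of 536 combination cells had a UMI. The 16 B-like cells with at least 10 Slpi UMIs, a limit set after the values were seen, held 98.7% of the class's Slpi, the highest of them with 2120 UMIs. Jchain, which encodes the joining chain of secreted antibodies, had a UMI in 10 of these 16 cells, against 47 of 725 B-like cells without Slpi. Xbp1, a regulator of antibody secretion, was in 15 of 16 against 166 of 725, and Sdc1, a plasma cell surface marker, in 7 of 16 against 18 of 725. Ms4a1, a B cell gene lost on that path, was in 7 of 16 against 576 of 725. Depth moved with this contrast, with a median of 17560 UMIs in the 16 cells and 4504 in the 725, and its part in the shares was not tested. Myeloid RNA was also more common in the 16: Lyz2, a lysozyme gene of myeloid cells, had a UMI in 7 of them against 126 of 725, Csf3r in 4 against 14, and S100a8 in 3 against 10. Of the 16, 2 had a high doublet score and 11 carried markers of another class, against 45 and 482 of the 725. The part of these other cell types in the Slpi values was not tested. In the combination library B-like cells held 68.6% of all Slpi UMIs, against 6.95% in untreated, and the Slpi of the whole library was 244, 240, 244 and 183 CPM.

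Ngp (neutrophilic granule protein) and Camp (cathelicidin antimicrobial peptide), cargo of the specific granules, came from 6 cells. Ngp in neutrophil-like cells was 465 CPM in untreated, 925 in STING agonist, 1011 in LTβR agonist and 58.0 in combination, and Camp was 357, 421, 1002 and 11.6 CPM. Only 0.901% to 1.87% of the neutrophil-like cells had an Ngp UMI. The 6 cells with at least 10 UMIs of both together, a limit set after the values were seen, held 99.5% of the Ngp and 99.9% of the Camp of all cells. There was 1 such cell in untreated, 2 in STING agonist, 2 in LTβR agonist and 1 in combination.

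All 6 cells carried the RNA of several granule genes. The untreated cell had 293 Ngp and 226 Camp UMIs. The STING agonist cells had 552 and 243 Ngp UMIs with 271 and 91 Camp UMIs. The LTβR agonist cells had 684 and 535 Ngp UMIs with 698 and 517 Camp UMIs, the most Camp of any cell. The combination cell was the shallowest, with 10 Ngp and 2 Camp UMIs among 1488 in all, whereas the other 5 had 9823 to 20399 UMIs. It also had 13 Lcn2, 3 Cd177 and 3 Mmp8 UMIs and none of Ltf. Ltf, lactoferrin of the same granules, had 44 to 266 UMIs in each of those 5 cells, and Lcn2 had 43 to 358. Together the 6 cells held 90.1% of the Ltf and 50.1% of the Lcn2 of neutrophil-like cells, but 10.2% of the S100a8 and 1.27% of the Slpi. Of the azurophil genes, 1 LTβR agonist cell had 2 Elane and 6 Prtn3 UMIs and no Mpo, and the other 5 had none of the 3. The 10 members made up 14.4% to 42.0% of the UMIs of these cells. None of the 6 had a high doublet score.

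**Figure D3:**
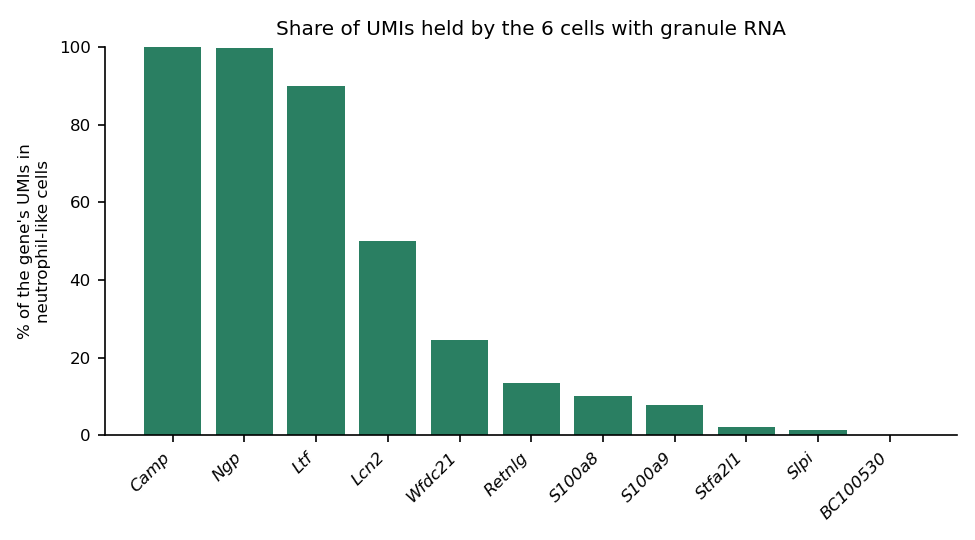
Percentage of the UMIs of each gene in neutrophil-like cells that lay in the 6 cells with at least 10 Ngp and Camp UMIs together, bars from 0. The bars run from 100% for Camp and 99.7% for Ngp down to 1.27% for Slpi and 0 for BC100530.

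The Ngp and Camp values of a library are thus those of 1 or 2 cells. With LTβR agonist the log2 ratio was 1.10 for Ngp, 1.46 for Camp, 1.13 for Lcn2 and 1.67 for BC100530, and these 4 were the members called of 10 tested, where 1.92% of all genes were called. With the combination Ngp was at -2.80 and Camp at -4.09, the 2 called of 9 tested (4.53% of all genes). With STING agonist Retnlg at 1.09 was the 1 called of 9 (2.09%). Against STING agonist the combination had 3 of 9 called (5.54%), Ngp at -3.78, Camp at -4.32 and Wfdc21 at -1.10, and against LTβR agonist the same 3 of 10 (6.61%), at -3.91, -5.55 and -1.33. Without the 6 cells, tried after the data were seen, Lcn2 was 309, 298, 325 and 386 CPM in the 4 libraries, and the count of called members was 0 for STING agonist, 1 for LTβR agonist (BC100530) and 0 for the combination, where 1.70%, 1.89% and 4.49% of all genes were called.

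Lcn2 (neutrophil gelatinase-associated lipocalin, which binds bacterial iron carriers) was otherwise thinly spread. With all cells it was 370, 553, 819 and 458 CPM, and a UMI was found in 26.1%, 28.6%, 33.4% and 25.4% of the cells. The share of cells thus moved less between libraries than the level did. In monocyte-like cells it was 1.15 to 3.19 CPM and in macrophage-like cells 0.121 to 0.452. T- or NK-like cells had 3 Lcn2 UMIs in all 4 libraries.

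**Figure D4:**
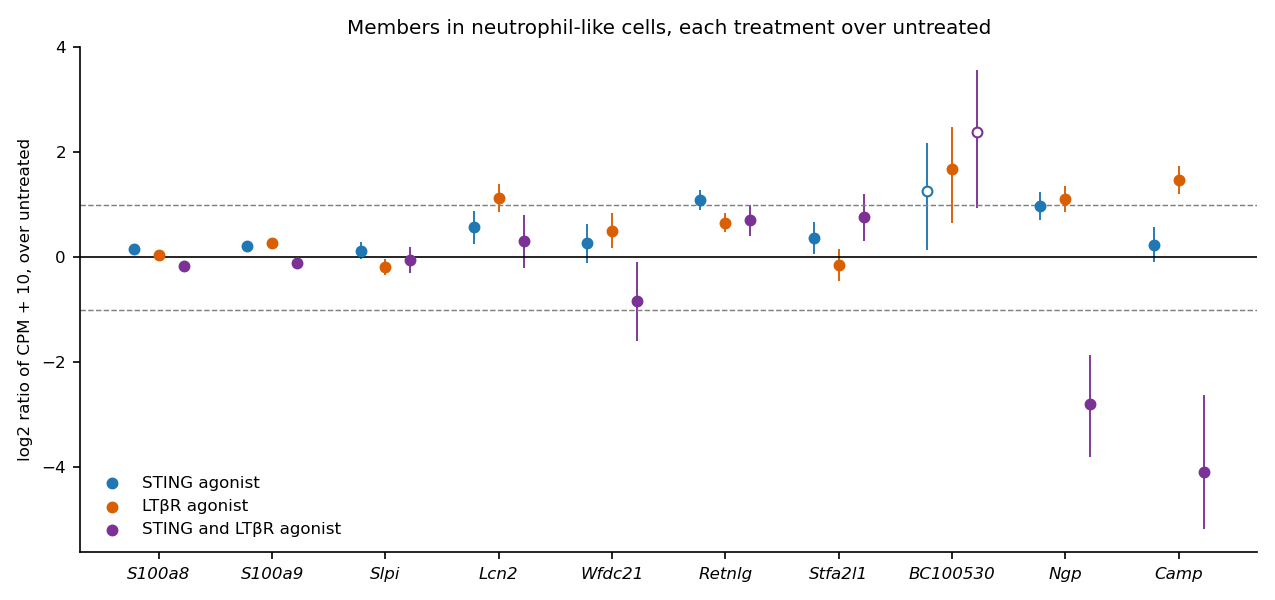
The log2 ratio of CPM + 10 of each member in neutrophil-like cells, each treatment over untreated, with the interval that the exact Poisson intervals of both counts allow. Dashed lines mark 2-fold and open points members under 50 UMIs in both libraries. S100a8, S100a9 and Slpi hug 0, while Ngp and Camp lie far below it in the combination.

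Retnlg, the resistin-like gamma gene of circulating neutrophils, had a higher summed level in each treated library than in untreated. For STING agonist and the combination this depended on which cells were counted. It stood at 911 CPM in untreated, 1949 in STING agonist, 1440 in LTβR agonist and 1484 in combination cells, with log2 ratios of 1.09, 0.66 and 0.70. The share of cells with a UMI was 40.1%, 46.2%, 58.6% and 35.8%, so the library with the highest level was not the one with most positive cells. In STING agonist cells 1 cell held 21.4% of the Retnlg and 10 cells 57.6%. In combination cells 10 cells held 91.8%. Without the 10 cells with most Retnlg in each library the log2 ratio of combination to untreated was -1.89. These 10 were a larger part of the 67 combination cells than of the 222 untreated ones, so the setting itself pulls this ratio down. Leaving out cells with markers of another class brought the ratio of STING agonist to 0.002. The LTβR agonist ratio ran from 0.59 to 1.29 over 18 alternatives. Without the 6 granule-rich cells the levels were 895, 1392, 1473 and 1280 CPM.

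The inhibitors other than Slpi were low and stayed inside the 2-fold bound against untreated, BC100530 apart. Wfdc21, a whey acidic protein family member, was 277, 334, 395 and 151 CPM, the combination value resting on 26 UMIs. Stfa2l1, a stefin that inhibits cathepsins, was 391, 504, 351 and 667 CPM. BC100530, another stefin of chromosome 16, had 4, 25, 51 and 13 UMIs in 1, 5, 7 and 4 cells. Stefin counts are uncertain, since 24.6% of the 50-base stretches of Stfa2l1 transcripts and 25.1% of those of BC100530 also occur in another gene, and none do in the other 8 members.

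Members differed between kinds of neutrophil-like cell. The 964 cells were divided into 9 sub-clusters without using the members. Sub-cluster 0 (252 cells, led by Stfa1, Ltf, Mmp9 and Anxa1) was highest or near it for most members, at 43660 CPM of S100a8, 4100 of Retnlg and 700 of Wfdc21. Sub-cluster 1 (166 cells), led by the chemokine gene Cxcl3, had 36070 CPM of S100a8, 1973 of Retnlg and 2809 of Slpi. At the other end, sub-cluster 3 (136 cells; Scimp, Clec4n, Icam1) had 16640 CPM of S100a8, 202 of Retnlg and 86.2 of Wfdc21, yet 1818 of Slpi. Against the whole class Retnlg was at a log2 ratio of 1.47 in sub-cluster 0 and -2.81 in sub-cluster 3, and Slpi at 0.48 and 0.08. Sub-cluster 4 (128 cells), led by the interferon-induced genes Cxcl10, Gbp5 and Ifit3, had 15180 CPM of S100a8 and 452 of Retnlg. Sub-cluster 7, 34 cells led by Alcam and Chst11 with the lowest median depth (1270 UMIs), had 867 CPM of S100a8, a UMI of it in 44.1% of cells, and no Stfa2l1. The share of cells with an Lcn2 UMI was 38.1% and 39.2% in sub-clusters 0 and 1, 16.9% and 16.4% in sub-clusters 3 and 4 and 2.94% in sub-cluster 7.

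Other sub-clusters carried genes of other cell types. Sub-cluster 5 (45 cells) was led by Nkg7, Ccl5 and Gzmb, sub-cluster 6 (44 cells) by Fn1, Arg1 and Cd74, and sub-cluster 8 (23 cells) by Ace and Adgre4, with median depths of 5406, 11440 and 7548 UMIs against 1810 to 2508 in sub-clusters 0 to 4. S100a8 was 13580, 7128 and 21750 CPM in them. T cell markers summed to 2750 CPM in sub-cluster 5, against 5.81 to 57.4 in the others, and monocyte markers to 6568 CPM in sub-cluster 6, against 310 to 1906. Their part in the S100a8 values was not tested. Of the 6 granule-rich cells, 4 fell in sub-cluster 0, 1 in sub-cluster 6 and 1 in sub-cluster 8.

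**Figure D5:**
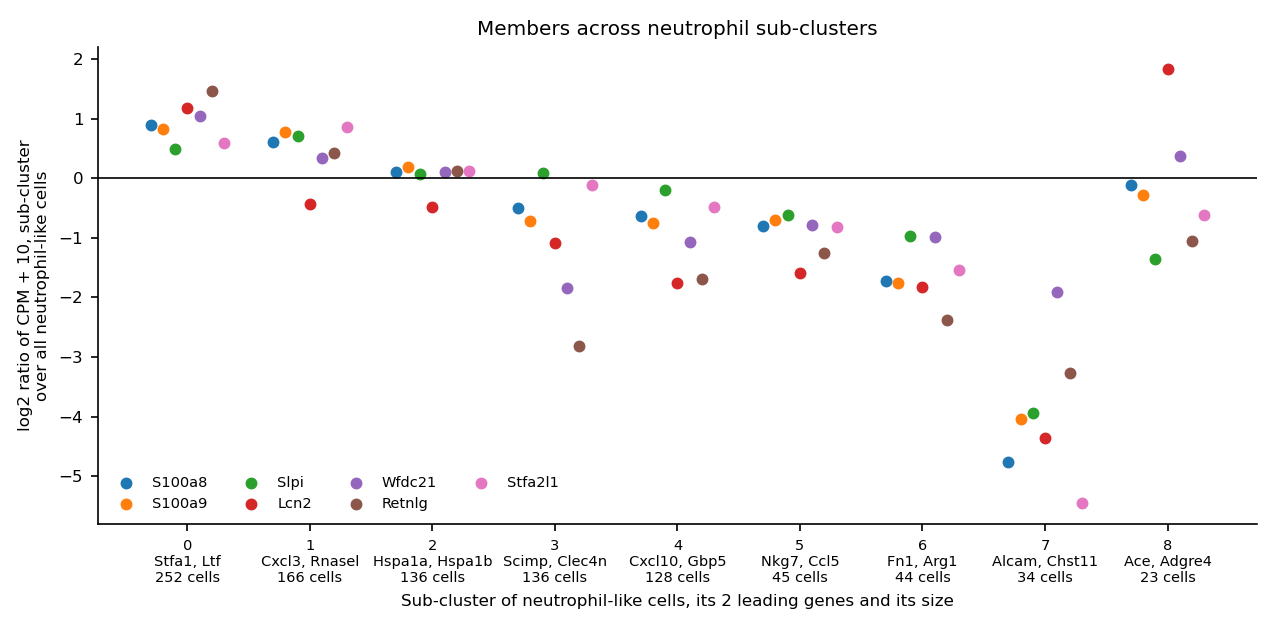
The log2 ratio of CPM + 10 in each sub-cluster of neutrophil-like cells over the whole class, for 7 members, with the 2 leading genes and size of each sub-cluster under the axis. All 7 members are lowest in sub-cluster 7, and Retnlg is at -2.81 in sub-cluster 3 where Slpi is at 0.08. Slpi stays within 1 log2 unit of the class in sub-clusters 0 to 6.

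The libraries differed in their mix of sub-clusters, and members differed between libraries within one as well. Sub-cluster 1 was 9.91% of untreated, 23.9% of STING agonist, 18.2% of LTβR agonist and 5.97% of combination neutrophil-like cells, while sub-cluster 0 was 34.7%, 21.3%, 23.0% and 37.3%. Within sub-cluster 0, S100a8 was 40230, 44270, 45020 and 47620 CPM. It differed more in others: in sub-cluster 4 it was 11260, 15510, 20770 and 6325 CPM over 33, 52, 30 and 13 cells, and in sub-cluster 2 (136 cells; Hspa1a, Hspa1b, Hsp90aa1) it was 16420 in untreated, 23960 in STING agonist and 29620 in LTβR agonist cells. S100a9 in sub-cluster 2 was 17140, 34100 and 44780 CPM in those 3 libraries, over 20, 37 and 75 cells. Retnlg in sub-cluster 0 was 2241, 6372, 3413 and 4928 CPM. Granule-rich cells weighed on this: 2 of them held 359 and 154 of the 1086 STING agonist UMIs. Another held 37 of the 234 combination UMIs. The same 2 STING agonist cells held 1558 and 1144 of the 7546 S100a8 UMIs of that library in sub-cluster 0. The order of the libraries without these cells was not tested. Slpi in sub-cluster 0 was 2279, 2447, 2442 and 2590 CPM. In sub-cluster 3 Retnlg was 122, 68.4, 598 and 0 CPM over 40, 52, 33 and 11 cells.

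Genes of the neutrophil programme were also read from lists fixed by name, some of which hold members. Of 5 azurophil granule genes none had 50 UMIs in neutrophil-like cells of any library. Of 8 specific granule genes, 7 were tested with LTβR agonist and 6 were higher (Ltf, Ngp, Camp, Lcn2, Cd177 and Chil3; 1.92% of all genes called), with a median log2 ratio of 1.13 against 0.01 over all genes. With the combination 3 of 5 were lower (Ltf at -2.10, Ngp, Camp; 4.53% of all genes called), and with STING agonist 0 of 5 were called (2.09%). Ngp, Camp and Lcn2 are members already counted above, so these counts and medians are not separate from theirs. Ltf, Ngp, Camp, Lcn2 and Cd177 rest largely on the 6 cells. Chil3, a chitinase-like gene, was 52.2, 22.1, 262 and 197 CPM, and 1 LTβR agonist cell of the 6 had 125 UMIs of it. Without the 6 cells Chil3 was 9.71, 4.79, 130 and 199 CPM. Of the gelatinase granule and late genes (4 or 5 tested) none was called, Mmp9, the gelatinase itself, being 492, 629, 359 and 423 CPM.

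Among relatives of the members, S100a4 was higher with LTβR agonist and with the combination, at 133, 107, 317 and 394 CPM. S100a6 and S100a11 stayed within 0.29 of 0. Beside these calls, 2.09% of all genes were called with STING agonist, 1.92% with LTβR agonist and 4.53% with the combination. Wfdc17, an inhibitor-like relative of Wfdc21, was 945, 1556, 3816 and 823 CPM, higher with LTβR agonist at 2.00. Stfa1 was higher with STING agonist at 1.02, on 94 UMIs. Without the 6 granule-rich cells it had 31 UMIs there. Its level was then 37.1 CPM against 50.2 in untreated, with too few UMIs for a ratio. Receptors and binding partners of the members (3 of 8 tested: Tlr4, Fpr1 and Fpr2) and regulators (6 of 10 tested) had 0 called in each comparison. With so few genes tested, 0 called is near what the shares of 2.09%, 1.92% and 4.53% over all genes would give. Tlr4, a receptor for calprotectin, was 213, 242, 258 and 214 CPM. Cebpd, which encodes a C/EBP factor, was 191, 208, 173 and 284 CPM. Monocyte markers moved beside the LTβR agonist and combination values. Their summed level in neutrophil-like cells, all 8 with a UMI in every library, was 1895, 1377, 2572 and 3489 CPM, against 14280, 16620, 12800 and 13590 for the 8 neutrophil markers. Their part in the S100a4, Chil3 and Wfdc17 values was not tested.

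Of 13 tumour neutrophil state genes tested, Cxcl3 (640, 2092, 1419 and 968 CPM) was higher with STING agonist and with LTβR agonist. Ccl4 was higher with STING agonist, Icam1 lower with LTβR agonist at -1.32 and Hmox1 lower with the combination at -1.19. Of all genes 2.09%, 1.92% and 4.53% were called with STING agonist, LTβR agonist and the combination. Of the circulating-like neutrophil state genes 1 of 7 was called with LTβR agonist (Cd177, where 1.92% of all genes were called) and 0 in the other comparisons. Of the 109 Cd177 UMIs of that library 45 and 19 lay in the granule-rich cells, and without the 6 cells Cd177 was 25.9, 20.3, 38.1 and 29.2 CPM with too few UMIs for a ratio. Cxcr2 was 544, 796, 552 and 736 CPM. Of 10 interferon-stimulated genes only Ifit3 passed the bound, with the combination at 1.01, where 4.53% of all genes were called. The medians of the list were 0.35, 0.24 and 0.60, against -0.03, 0.01 and -0.01 over all genes.

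Genes whose log levels ran closest to a member were found over 109 sums of 29 clusters by library. For S100a8 they were G0s2 (Pearson r 0.93), Cxcr2 (0.89) and 4933432I03Rik (0.87). Retnlg and Lcn2 both had Cxcr2 (0.97 and 0.98), Il1f9 (0.96 and 0.98) and the stefin gene Gm5483, listed as Cstdc4 (0.96 and 0.98), as their nearest 3. For Ngp they were Chil1 (0.99), Gm20406 (0.97) and Mrgpra2b (0.96), values that rest on few cells, since 6 cells held 99.5% of the Ngp UMIs. Slpi had no near match as close, its first being Plaur (0.79), then Gm4221 (0.78) and Cd300lf (0.77). The members were chosen as genes that mark neutrophils, so near genes that mark neutrophils too follow in part from that choice. Cxcr2 and G0s2 are also on the list that named the cluster. The sums share libraries and depth, and no p is given.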

How the data were processed

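The authors deposited 1 matrix of UMI counts (10x 5′ chemistry, Cell Ranger 7.1.0, mm10), with barcode suffixes that the labels tie to the 4 libraries. Barcodes with 300 to 5000 genes and at most 6% mitochondrial UMIs were kept (23011 of 24839). Cells were clustered without the members or V(D)J genes (2000 variable genes, 30 principal components, 20 neighbours, Leiden resolution 1; scanpy 1.11.5, leidenalg 0.10.2), and clusters were named from marker lists; the limits of that naming were set after clusters were seen. Doublets were scored with Scrublet and kept in the main values. UMIs were summed per class and library as CPM. The ratio script was checked on simulated counts. With 1 library a group no test was run. All members, each list's counts with up to 4 genes of largest size, and the 3 nearest genes of 5 members are named. Members and lists were chosen with earlier results of these data known. The genotype of the tumour line is not reported here. Which of the study's single-cell experiments gave these libraries is not stated. Whether depth was equalised between libraries is not given in the sources used here.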

Additional observations from a re-analysis of the deposited data

Results flagged for a closer look

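Slpi moved in different directions between cell classes with LTβR agonist over untreated: the log2 ratio was -1.08 in cluster 3 and -0.18 in neutrophil-like cells, and 0.17 in macrophage-like cells, with each counting interval to 1 side of 0. The macrophage-like value rested on few cells: without the cell with most Slpi in each library, tried after the data were seen, it was 0.068 (-0.084 to 0.22), and without that cell of each macrophage-like cluster -0.11 (71.8 against 78.1 CPM). Its clusters 0 and 20 were at -0.52 and -1.30. Without the cell with most Slpi in each library the ratio was -0.12 (-0.27 to 0.038) in neutrophil-like cells and -1.23 in cluster 3. The difference between the classes was not tested, since there is 1 library a group.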

How the results depend on the processing

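The 9 counts of members called were recomputed under 18 alternatives. The call of Slpi in monocyte-like cells with the combination held under all of them (log2 ratio -2.43 to -1.06). Camp in neutrophil-like cells with the combination was past 2-fold under 14 (-4.83 to -1.39) and had too few UMIs under the other 4. This Camp call rests on single cells: all 226 untreated UMIs lay in 1 cell and the 2 combination UMIs in 1 cell. Of 162 recomputed counts, 128 stayed within 1.5 times the reported count. In neutrophil-like cells the STING agonist count of 1 became 9 of 9 with each cell named by marker score (3.73% of all genes called under that naming), 2 with no low-count filter and without the cell with most UMIs of the gene (Ngp and Camp), and 0 without cells with markers of another class, without the 10 cells with most UMIs of the gene, or without the 6 granule-rich cells. The LTβR agonist count of 4 became 2 without the cell with most UMIs of the gene, 1 at resolution 0.5 and without the 6 cells, and 0 without cells with markers of another class or without the 10 cells. The combination count of 2 became 1 without cells with markers of another class and 0 without the 6 cells or without the cell with most UMIs of the gene. In monocyte-like cells, where the reported counts were 0, 0 and 1, the STING agonist count was 2 with a pseudocount of 1 and 1 after subtracting the T- or NK-like level. The LTβR agonist count there was 5 at resolution 0.5, 2 by marker score and by the mean over cells, and 1 at resolution 2, without cells with markers of another class, by the mean over clusters and after the subtraction. The combination count was 2 with a pseudocount of 1. In macrophage-like cells, reported at 0 throughout, the STING agonist count was 1 at resolution 0.5, at resolution 2, with a pseudocount of 1 and after the subtraction. The LTβR agonist count was 1 after the subtraction, and the combination count was 1 with the members kept for clustering, at resolution 0.5, by marker score, without cells with markers of another class and without the 10 cells. The called log2 ratios that changed sign were Ngp with LTβR agonist (-0.054 at resolution 0.5), Lcn2 with LTβR agonist (-0.038 without cells with markers of another class) and Ngp with the combination (0.13 by the mean over cells). Leaving out cells shows that a few cells set these calls, and for the other settings the cause was not tested. The setting without 10 cells takes a larger part of a library with fewer cells, as with the 67 combination neutrophil-like cells. Leaving out cells with markers of another class removed 462 of 964 neutrophil-like cells. Thinned to 500 UMIs, 94 of 120 shares stayed within the counting interval of the share at 1000. Slpi in B-like cells without cells with other markers or high doublet scores, tried after the data were seen, was 0, 57.2, 723 and 3104 CPM over 16, 6, 61 and 178 cells. No paired analysis was possible because each group has 1 library. The combination neutrophil-like values rest on 67 cells and the STING agonist B-like values on 15.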

Other observations

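A dendritic-like cluster led by Siglech, Cox6a2 and Klk1 also carried much Slpi. Slpi there was 700 CPM in untreated, 909 in STING agonist, 647 in LTβR agonist and 779 in combination cells, with log2 ratios to untreated of 0.37, -0.11 and 0.15, and the thinned share of cells with a UMI was 33.0%, 33.4%, 32.5% and 27.1%. Unthinned it was 60.7%, 52.8%, 66.7% and 45.5%, the combination the lowest on both. In combination cells 1 of 44 held 32.6% of the Slpi, and without the cell with most Slpi in each library the levels were 661, 704, 596 and 541 CPM, with a log2 ratio of combination to untreated of -0.29 (-0.59 to 0.018). The other dendritic-like clusters were lower: the one led by Fscn1 and Ccr7 had 49.8, 17.1, 36.2 and 11.6 CPM. In the one led by Cd209a, Slpi was 1.31 CPM in untreated and 104 in LTβR agonist cells, of which 94.7% came from 1 cell.

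Other single cells set apparent levels in the same way. In the LTβR agonist library 1 cell held 99.4% of the S100a8 of a T- or NK-like cluster of 88 cells, and in the untreated library 1 cell held 79.2% of that of macrophage-like cluster 18. Of the barcode sequences shared by a pair of libraries, 27 belonged to a neutrophil-like cell in at least 1 library.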
